A study of Mus musculus with 10 samples.

Results

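The Reg family lectins Reg3b, Reg3g, Reg4, Reg3a and Reg1 were examined in colonic intestinal epithelial cells (IECs) of mice without the small GTPase RhoB. They were taken by gene symbol, and are 5 of the 55487 genes of the expression table. The study prepared 1 RNA library of IECs from each of 5 WT and 5 RhoB-/- mice, all on the C57BL/6J background. IECs were released from the colon with EDTA and DTT, and no treatment is named for these mice. By the study's methods mice were 6 to 8 weeks old unless stated otherwise, the knockout mice were made at one centre and wild-type mice were bought from another. The labels do not say whether the sequenced mice were littermates, so genotype and origin of the mice cannot be told apart.

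Reg proteins are small secreted C-type lectins with a single carbohydrate recognition domain. Reg3g and Reg3b are antibacterial lectins of the gut surface, Reg3g binding mainly Gram-positive bacteria. Their transcription in epithelium rises with bacterial colonization and with interleukin 22 (IL-22), which signals through the receptor subunit Il22ra1 and the transcription factor Stat3. Reg4 is made by enteroendocrine and deep crypt secretory cells of the colon, while Reg1 and mouse Reg3a are best known from small intestine and pancreas.

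Values are TPM, which scale each transcript for its length and each library to a common total, so levels of different genes can be set side by side. TPM keeps no sequencing depth, so the counting error of each value is unknown. Between 20261 and 21344 genes were above 0 in a library, and mitochondrial transcripts took 17.5% to 26.5% of WT and 10.3% to 22.4% of RhoB-/- libraries. Rhob itself was at 170.5 to 388.7 TPM in WT libraries and 0.09, 0.10, 0.35 and 0.57 TPM in RhoB-/- replicates 1 to 4. The library labelled RhoB-/- replicate 5 had 110.9 TPM of Rhob and was kept in its group. Fold changes of the members above the filter are also given without it. So are the ratio and correlation of Reg3b with Reg3g, and the spread of Reg3b, Reg3g and Reg4.

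Of the genes of the family, 6 lie together on chromosome 6 (GRCm38), over the 98.2 kb from 78370657 to 78468872. Reg3b (ENSMUSG00000071356) occupies one end on the plus strand, from 78370657 to 78373466, and Reg3g (ENSMUSG00000030017) the other end on the minus strand, from 78466269 to 78468872. Reg3a (ENSMUSG00000079516, 78380709 to 78383827) and Reg1 (ENSMUSG00000059654, 78422711 to 78428667) lie between them, with Reg3d and Reg2, which are not among the 5 members. Reg4 (ENSMUSG00000027876) stands alone on chromosome 3, from 98222156 to 98236748. The coding sequences of Reg3b and Reg3g were 76% identical over 525 aligned positions, against 72.8% and 73.3% for Reg3a with each of them and 49.5% to 53.9% for Reg4 with the others.

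The bases before the RefSeq starts of Reg3b and Reg3g are shown because the results below turn on these genes, which are transcribed toward each other from the ends of the cluster. Capitals mark matches to the TATA box (TATAAA on either strand) and to the STAT site (TTC and GAA with any 3 bases between them). The windows are the last 178 bases before the start on GRCm38.p6, for Reg3b chr6:78370707-78370884 on the plus strand and for Reg3g chr6:78468875-78469052 on the minus strand. The Reg3b window includes 24 bases that GENCODE places in the first exon of one of its transcripts.
Reg3b: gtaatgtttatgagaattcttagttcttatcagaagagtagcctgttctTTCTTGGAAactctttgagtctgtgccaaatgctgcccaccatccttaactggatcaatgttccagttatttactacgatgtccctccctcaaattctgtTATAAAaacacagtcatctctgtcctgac
Reg3g: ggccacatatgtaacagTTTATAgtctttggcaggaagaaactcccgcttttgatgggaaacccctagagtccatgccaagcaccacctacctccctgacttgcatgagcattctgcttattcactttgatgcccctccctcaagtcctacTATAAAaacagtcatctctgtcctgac

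Over 250 bases before the start, the windows of Reg3b and Reg3g were 68.4% identical and ended in the same 20 bases. The other 20 pairs among the 7 Reg genes of the table were 43.8% to 55.6% identical. Both genes had a TATA box match close to the start, 29 to 24 bases before it in Reg3b and 27 to 22 bases before it in Reg3g, and Reg1 had one 30 to 25 bases before its start. A STAT site match was found in 1 of the 5 members, Reg3b, 129 to 121 bases before the start. Reg3d, a gene of the cluster outside the 5 members, also held one, TTCCCAGAA, 238 to 230 bases before its start. The aligned bases of Reg3g, TGATGGGAA, differ from the Reg3b match TTCTTGGAA by T2G, C3A and T5G, counted from 1 at the first base of the match. Of the 32851 promoters in the RefSeq table, 7.02% held a STAT site match and 12.4% a TATA box match, both strands searched over the same length. The interferon-stimulated response element (GAAANNGAAA), held by 2.98% of promoters, was matched in 0 of the 5 members. These are matches of letters in the windows searched. The 250-base window of Reg3b begins at 78370635 and runs past 78370657, where GENCODE begins the gene. Both Reg3b matches therefore lie before the RefSeq start but inside the span that GENCODE annotates.

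In WT colon, Reg4, Reg3b and Reg3g carried nearly all Reg transcript and Reg3a and Reg1 were close to the limit of the table. Mean levels were 397.5 ± 208.0 TPM for Reg4, 216.9 ± 96.3 for Reg3b, 107.4 ± 37.9 for Reg3g, 1.08 ± 0.894 for Reg3a and 0.312 ± 0.135 for Reg1 (SD, n = 5). The WT ranges of Reg4 and Reg3b overlapped, as did those of Reg3b and Reg3g and those of Reg3a and Reg1. Reg3b was nonetheless above Reg3g within each of the 5 WT libraries. Reg4 was the most abundant Reg transcript in WT replicates 2, 3 and 4, and Reg3b in replicates 1 and 5.

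In RhoB-/- mice the order by mean was Reg3b with 1502 ± 1255 TPM, Reg4 with 593.7 ± 214.3 and Reg3g with 420.0 ± 399.2 (SD, n = 5). These neighbours also overlapped in range. Reg3b was the most abundant Reg transcript in RhoB-/- replicates 1, 3 and 5, and Reg4 in replicates 2 and 4. The 5 members together took 0.0512% to 0.0953% of the TPM of a WT library and 0.0909% to 0.459% of a RhoB-/- library. Reg3b made up 13.9% to 43.9% of the summed member TPM in WT and 25.5% to 69.0% in RhoB-/- libraries.

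**Figure D1:**
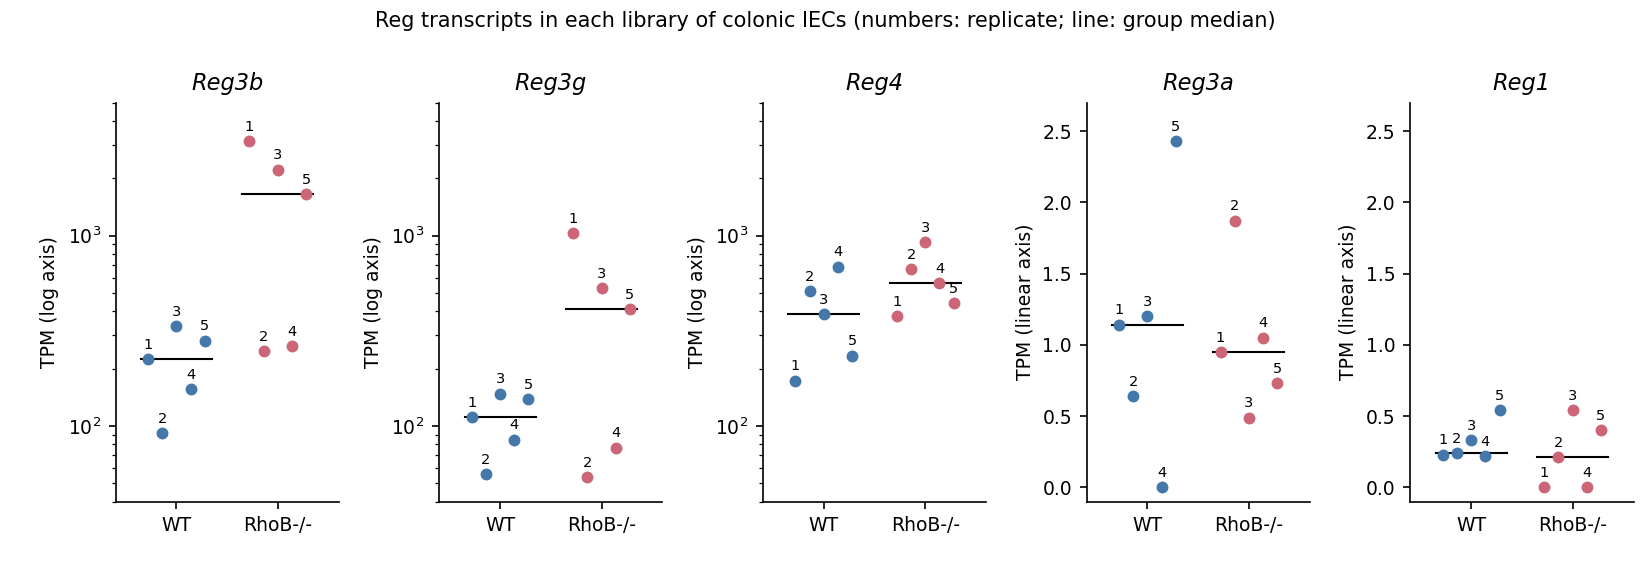
TPM of each Reg member in each library, WT in blue and RhoB-/- in red, with the replicate number at each point and a line at the group median; the first 3 panels have a log axis and the last 2 a linear axis. Reg3b and Reg3g of RhoB-/- replicates 1, 3 and 5 lie above all WT libraries, while replicates 2 and 4 lie at WT levels.

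Reg3b, an antibacterial lectin, was at 223.4, 91.7, 333.2, 155.5 and 280.6 TPM in WT replicates 1 to 5. In RhoB-/- replicates 1 to 5 it was at 3131, 247.6, 2219, 261.5 and 1652 TPM. Of the RhoB-/- libraries 3 exceeded the highest WT library, and replicates 2 and 4 fell within the WT range, so the groups overlapped. In the order of all genes of its library by TPM, Reg3b stood at place 20, 40 and 61 in RhoB-/- replicates 1, 3 and 5, at 388 and 444 in replicates 2 and 4, and between 346 and 1281 in WT. Genotypes were compared with limma, on a log2(TPM + 1) scale, for the 12870 genes that averaged at least 1 TPM, and genes were called at a Benjamini-Hochberg adjusted p below 0.05. Reg3b rose, with a log2 fold change of 2.25 (SE 0.70, 95% interval 0.72 to 3.78, adjusted p = 0.0403). An exact two-sided permutation test of Reg3b alone over the 252 labellings of the libraries gave p = 0.0556, where the smallest possible value is 0.00794.

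The call of Reg3b depended on single libraries. Its log2 fold change was 1.82 to 2.73 when each library was left out in turn, and limma's adjusted p was 0.0203 to 0.107. The call was lost without WT replicate 1 (adjusted p = 0.0608), 2 (0.107), 4 (0.103) or 5 (0.0615), and without RhoB-/- replicate 1 (0.102), 3 (0.0772) or 5 (0.101). Without replicate 5, the library with Rhob transcript, the log2 fold change was 2.05. With no filter on low TPM the adjusted p was 0.108, for the same log2 fold change.

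Reg3g, the lectin that binds Gram-positive bacteria, was at 110.8, 55.9, 147.9, 84.5 and 137.8 TPM in WT replicates 1 to 5. In RhoB-/- replicates 1 to 5 it was at 1031, 53.7, 529.4, 76.7 and 409.3 TPM. The same 3 RhoB-/- libraries as for Reg3b were above every WT library, replicate 2 was below every WT library and replicate 4 was within the WT range. The log2 fold change of Reg3g was 1.28 (SE 0.71, 95% interval -0.26 to 2.83) and did not pass the test, with limma's adjusted p = 0.209 and an exact permutation p = 0.183.

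Reg4, the lectin of colonic secretory cells, was at 172.8, 509.7, 386.5, 685.2 and 233.2 TPM in WT replicates 1 to 5. In RhoB-/- replicates 1 to 5 it was at 377.0, 666.6, 921.1, 562.2 and 441.4 TPM. Only RhoB-/- replicate 3 was above every WT library, and the highest and lowest RhoB-/- libraries were not those of Reg3b. The log2 fold change of Reg4 was 0.68 (SE 0.36, 95% interval -0.10 to 1.46, adjusted p = 0.190 from limma, exact permutation p = 0.167). With each library left out in turn the log2 fold change was 0.77 to 1.83 for Reg3g and 0.42 to 0.92 for Reg4, and neither was called in any of these 10 fits. Without RhoB-/- replicate 5 it was 1.1 for Reg3g (adjusted p = 0.354 from limma) and 0.77 for Reg4 (0.209).

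Reg3a, a close relative of Reg3b in coding sequence, was at 1.14, 0.64, 1.2, 0.00 and 2.43 TPM in WT and 0.95, 1.87, 0.49, 1.05 and 0.73 TPM in RhoB-/- replicates 1 to 5. The groups overlapped throughout, and its log2 fold change was 0.03 (SE 0.31, 95% interval -0.64 to 0.71, adjusted p = 0.951 from limma), or 0.08 without RhoB-/- replicate 5 (0.889). Reg1, known as a pancreatic stone protein, was below the filter, at 0.22 to 0.54 TPM in WT and 0.00 to 0.54 TPM in RhoB-/- libraries (exact permutation p = 0.476). The counting error at these levels is unknown.

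In total 4 of the 5 members passed the filter and 1 of them, Reg3b, was called higher and 0 lower, where 7.73% of all tested genes were called higher and 13.5% lower. Groups that did not overlap were seen in 0 of the members, against 5.97% of tested genes whose RhoB-/- libraries all lay above WT and 8.55% whose libraries all lay below. The median log2 fold change of all tested genes was -0.13, and -0.01 after each library was centred on its median deviation. In RNA of a mixed cell preparation, more cells of a type and more RNA per cell cannot be told apart.

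The remaining genes of the cluster stayed low. Reg2, a lectin close to Reg1, was at 0.57 to 2.25 TPM in WT and 0.72 to 1.99 TPM in RhoB-/- libraries (log2 fold change 0.08, adjusted p = 0.847 from limma). Reg3d was listed at 0 in 9 libraries and at 0.10 TPM in RhoB-/- replicate 2. High levels were therefore seen at the ends of the cluster, at Reg3b and, with its annotated span beginning 95.6 kb away, at Reg3g, while the 4 genes between them did not exceed 2.43 TPM in any library.

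**Figure D2:**
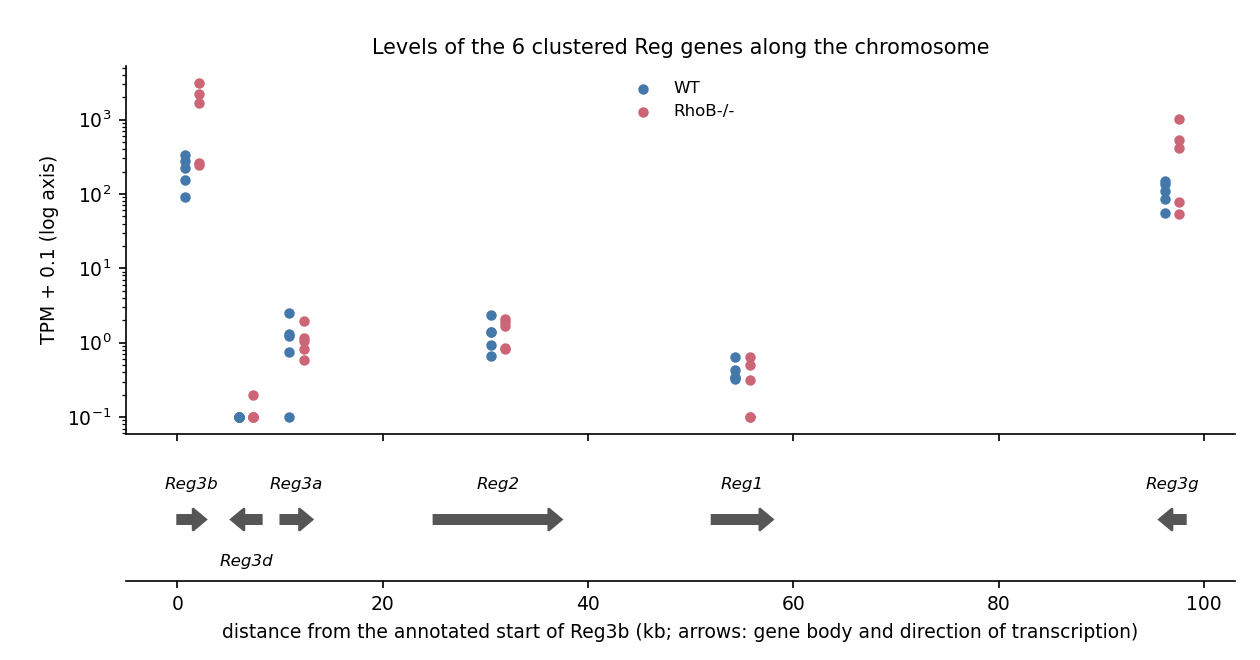
The 6 clustered Reg genes drawn to scale as arrows by their distance in kb from the annotated start of Reg3b (lower panel), with the level of each gene in each library as TPM + 0.1 on a log axis above it (WT blue, RhoB-/- red). Reg3b and Reg3g, at the ends, were at or above 53.7 TPM in every library and the 4 genes between them at or below 2.43 TPM.

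Spread between RhoB-/- mice was the other feature of Reg3b and Reg3g. In log2(TPM + 1), the SD of Reg3b was 0.74 in WT and 1.75 in RhoB-/- mice, and that of Reg3g 0.57 and 1.84. The median SD of the tested genes was 0.20 in WT and 0.24 in RhoB-/- mice. Ordered by SD among the 12870 tested genes, Reg3b stood at place 190 and Reg3g at 173 in RhoB-/- mice, and at 466 and 726 in WT. Reg4 had an SD of 0.81 in WT (place 421) and 0.50 in RhoB-/- mice (place 1134). In WT it thus varied more than Reg3b and Reg3g, and in RhoB-/- mice less. Without RhoB-/- replicate 5 the SD of that group was 1.95 for Reg3b (place 154), 2.07 for Reg3g (place 136) and 0.54 for Reg4, and the median of tested genes was 0.23.

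Reg3b and Reg3g varied together within each genotype. After the genotype mean was subtracted, their log2 values had Pearson's r = 0.988 and Spearman's rho = 1 over the 10 libraries. Without RhoB-/- replicates 2 and 4, the farthest from the median, r was 0.977 over 8 libraries. These 8 kept the genotype means of all 5 libraries, so a difference between genotypes enters that value. Without RhoB-/- replicate 5, with the genotype mean taken anew, r was 0.988 over 9 libraries. Of all tested genes each was the most like the other in this measure, which is given as a description, since the points share the scaling of their libraries.

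The balance between these lectins nevertheless differed by genotype in every mouse. The ratio of Reg3b to Reg3g TPM within a library was 2.02, 1.64, 2.25, 1.84 and 2.04 in WT replicates 1 to 5. In RhoB-/- replicates 1 to 5 it was 3.04, 4.61, 4.19, 3.41 and 4.04. All RhoB-/- ratios were above all WT ratios, including those of replicates 2 and 4, in which the level of Reg3b was within the WT range. The mean ratio was 1.96 ± 0.230 in WT and 3.86 ± 0.630 in RhoB-/- mice (SD, n = 5). The mean log2 ratio differed by 0.97, a 1.96-fold difference, with p = 0.00794 by an exact two-sided permutation test, the smallest that 5 against 5 libraries allow.

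The difference in log2 ratio was 0.90 to 1.05 with each library left out in turn, and 0.95 without RhoB-/- replicate 5. A ratio within a library does not change with the scaling of that library, and shows unequal change of the pair without saying which of them moved. Similar genes can share reads: of the 1120 stretches of 31 bases in Reg3b transcripts, 5 also occur in Reg3g transcripts, and the longest stretch shared by the coding sequences is 35 bases.

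**Figure D3:**
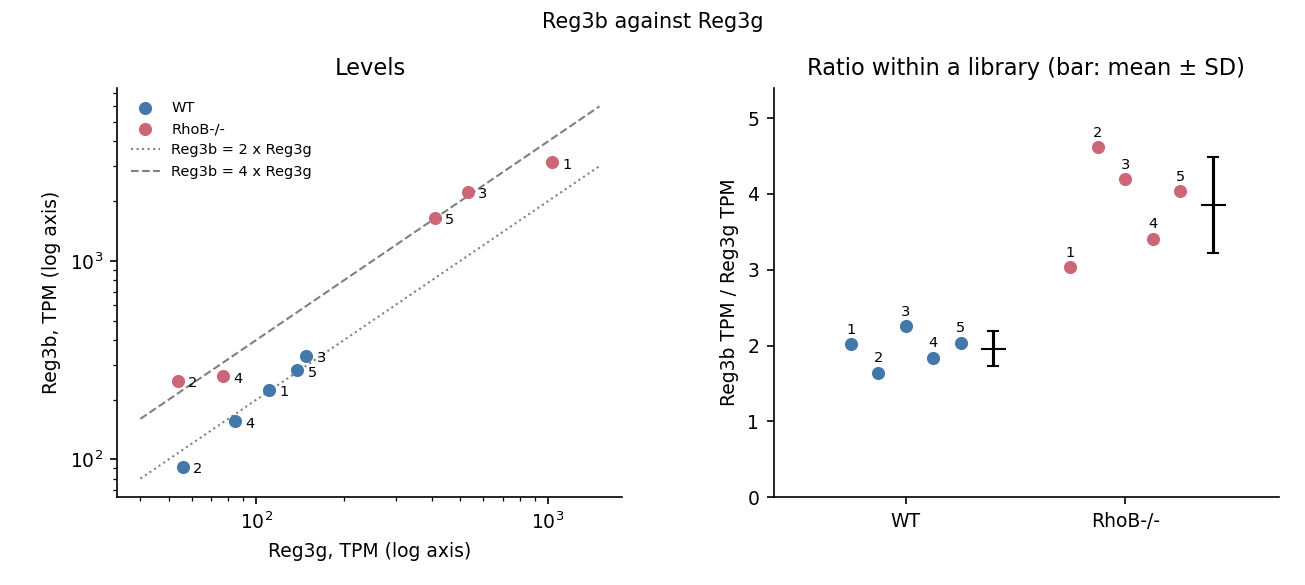
Left, Reg3b against Reg3g in TPM on log axes, 1 point per library with its replicate number, with lines at ratios of 2 and 4; right, the ratio of Reg3b to Reg3g TPM within each library with the mean ± SD (n = 5). WT libraries lie between 1.64 and 2.25 and RhoB-/- libraries between 3.04 and 4.61.

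After each other, Cd47, a cell surface protein that inhibits phagocytosis, and Il4ra, the receptor subunit for interleukins 4 and 13, were most like Reg3b (r = 0.923 and 0.922, n = 10). Map3k6, a kinase of stress-activated MAP kinase cascades, and Il4ra were most like Reg3g (r = 0.945 and 0.939). Without the 2 farthest libraries these 4 values fell to 0.830, 0.810, 0.872 and 0.839 (n = 8). Values without the farthest libraries kept the genotype means of all 5 libraries, so they do not measure likeness within genotypes alone. Cd47 was at 19.3 to 24.4 TPM in WT libraries and at 40.6, 26.9, 41.6, 29.99 and 38.8 TPM in RhoB-/- replicates 1 to 5, again lowest in replicates 2 and 4, but above WT in all 5 (log2 fold change 0.67, adjusted p = 0.00510 from limma). Six5, a homeobox factor, was most like Reg4 (r = 0.984, and 0.966 without WT replicates 1 and 4), and Fam221a most like Reg3a (r = 0.955, and 0.927 without WT replicates 4 and 5). The next most like Reg4 were Gm29394 and 5430405H02Rik (r = 0.956 and 0.955), and the next most like Reg3a were Fhl2 and Ccdc120 (0.918 and 0.917).

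A few other genes with the same 3 high RhoB-/- libraries were chosen after their values were seen. Cd74, the invariant chain of MHC class II, was at 4.83 to 10.6 TPM in WT libraries and at 876.0, 14, 1391, 36.1 and 223.7 TPM in RhoB-/- replicates 1 to 5, and the class II chain H2-Aa had r = 0.904 with Reg3b. Lrg1, an acute-phase glycoprotein and STAT3 target, was at 0.24 to 0.51 TPM in WT libraries and at 14.7, 0.37, 9.11, 0.16 and 3.52 TPM in RhoB-/- replicates 1 to 5. Socs3, the feedback inhibitor of STAT3 signalling, was at 7.54 to 11.3 TPM in WT libraries and at 56.5, 8.60, 19.9, 7.69 and 17.2 TPM in RhoB-/- replicates 1 to 5. As with Reg3b and Reg3g, replicates 1, 3 and 5 were the high libraries of Cd74, Lrg1 and Socs3. Cd74 rose (log2 fold change 4.29, adjusted p = 0.0149 from limma), while Lrg1 (1.61, adjusted p = 0.0877) and Socs3 (0.86, adjusted p = 0.152) did not pass the test.

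Genes of IL-22 and interleukin 6 signalling, with some other cytokines and their receptors, were read as RNA only. Neither IL-22 protein nor STAT3 activation was measured. Over all tested genes 7.73% were called higher and 13.5% lower. Il22 was listed at 0 in 9 of 10 libraries and at 0.35 TPM in RhoB-/- replicate 1. Of the 8 listed cytokines 3 were tested, with 0 higher and 1 lower: Il18, an epithelial cytokine of the interleukin 1 family, fell by 0.91 on the log2 scale (adjusted p = 0.00784 from limma), from 89.2 ± 23.1 to 45.9 ± 7.56 TPM (SD, n = 5). Of 6 tested receptor genes 1 was higher and 1 lower. Il22ra1, the IL-22 receptor of epithelium, rose from 11.4 ± 2.14 to 20.2 ± 5.0 TPM (log2 fold change 0.76, adjusted p = 0.00728), and Il11ra1, the receptor for interleukin 11, fell by 0.48 (adjusted p = 0.0493). Of 8 transducers Jak2, a kinase upstream of STAT3, was the only one called (log2 fold change 0.52, adjusted p = 0.0195), and for Stat3 the log2 fold change was 0.17 (adjusted p = 0.393). Extl3, described as a receptor for Reg proteins, showed a log2 difference of -0.19 (adjusted p = 0.288).

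Most other tested epithelial genes known to respond to IL-22 or STAT3 were higher in RhoB-/- mice. Of 16 listed, 12 were tested, with 9 higher, 0 lower and a median log2 fold change of 1.72. Steap4, Lrg1 and Cxcl5 had WT means of 0.858, 0.346 and 0.45 TPM and passed the filter through their RhoB-/- values. A gene this low in WT and not higher in RhoB-/- mice could not be tested, so count and median lean upward. The share called higher over all tested genes was 7.73%. Saa3 and Saa1, acute-phase serum amyloid proteins, rose from 1.84 ± 1.04 to 48.5 ± 31.1 TPM (log2 fold change 3.95, adjusted p = 7.80e-05 from limma) and from 358.8 ± 153.4 to 1899 ± 454.6 TPM (2.49, adjusted p = 2.32e-04). Duox2, the hydrogen peroxide-forming oxidase, and its maturation factor Duoxa2 rose by 2.49 and 3.19 on the log2 scale (adjusted p = 5.02e-05 and 4.34e-04). These 4 genes had the largest log2 fold changes on the list. For them each RhoB-/- library was above each WT library, as in 5.97% of all tested genes. This held in replicates 2 and 4, where Saa1 was at 1257 and 1837 TPM and Duox2 at 101.7 and 100.6 TPM. Saa3 was lowest in these replicates, at 21.7 and 18.1 TPM. The others called were Steap4, Nos2, C3, Fut2 and Saa2. Lrg1, Cxcl5 and Pla2g2a were tested and not called, and Lcn2, S100a8, S100a9 and Lbp were below the filter. Within the RhoB-/- libraries Cxcl5 was highest in replicates 1, 3 and 5.

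Of 15 other secreted lectins and antimicrobial proteins 12 were tested, with 6 higher and 0 lower, against 7.73% and 13.5% of all tested genes. The median log2 fold change of the 12 was 0.67. Ang4, a microbicidal ribonuclease, rose from 160.3 ± 144.5 to 2331 ± 581.8 TPM (log2 fold change 4.53, adjusted p = 0.00112 from limma). Retnlb, the goblet cell protein RELMβ, rose from 132.4 ± 94.7 to 1868 ± 680.5 TPM (3.96, adjusted p = 2.91e-05). The lectins Itln1 and Lgals9 rose by 3.87 and 2.26 on the log2 scale (adjusted p = 1.45e-05 and 6.41e-07). In these 4 genes too, which had the largest changes on the list, the groups did not overlap. In RhoB-/- replicates 2 and 4 Ang4 was at 3034 and 2376 TPM, against 2657, 1499 and 2089 TPM in replicates 1, 3 and 5, while Retnlb was lowest there, at 1208 and 1304 TPM. Lypd8 and Pglyrp1 were also called higher.

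**Figure D4:**
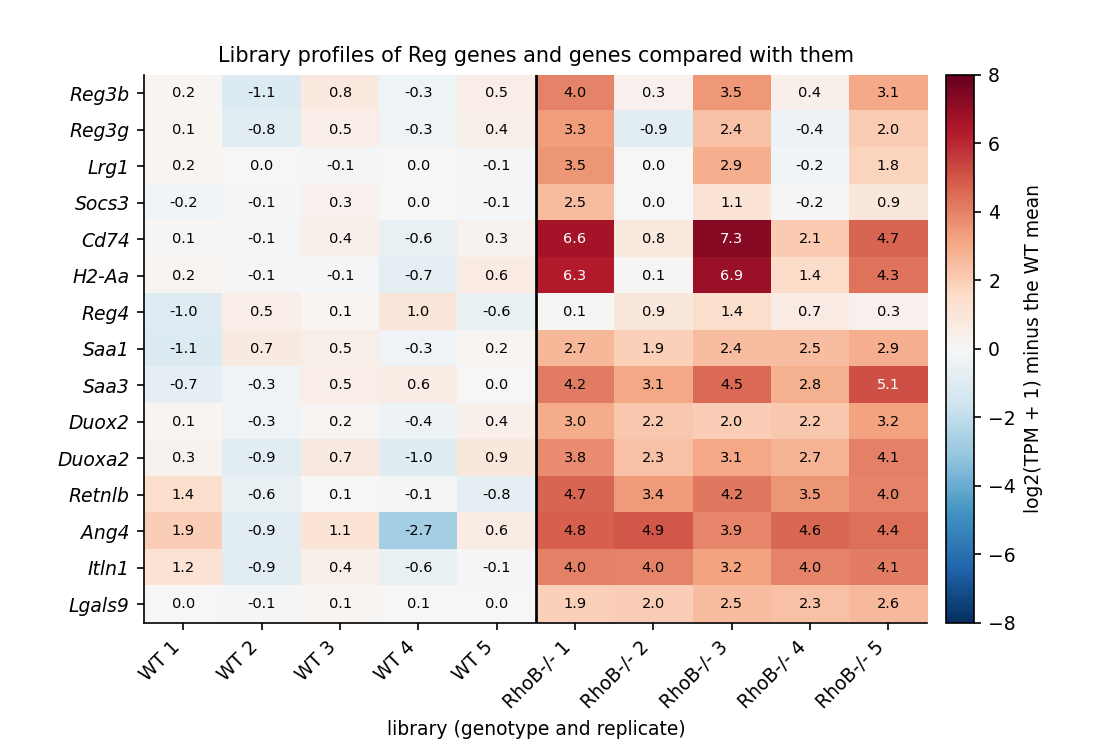
Heat map of log2(TPM + 1) minus the WT mean for 3 Reg members and 12 genes compared with them (rows) in each library (columns), with the value in each cell. Reg3b, Reg3g, Lrg1, Socs3, Cd74 and H2-Aa were high in RhoB-/- replicates 1, 3 and 5 and lower in replicates 2 and 4. Cd74, and Saa1 to Lgals9 in the lower rows, were above every WT library in all 5 RhoB-/- libraries.

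**Figure D5:**
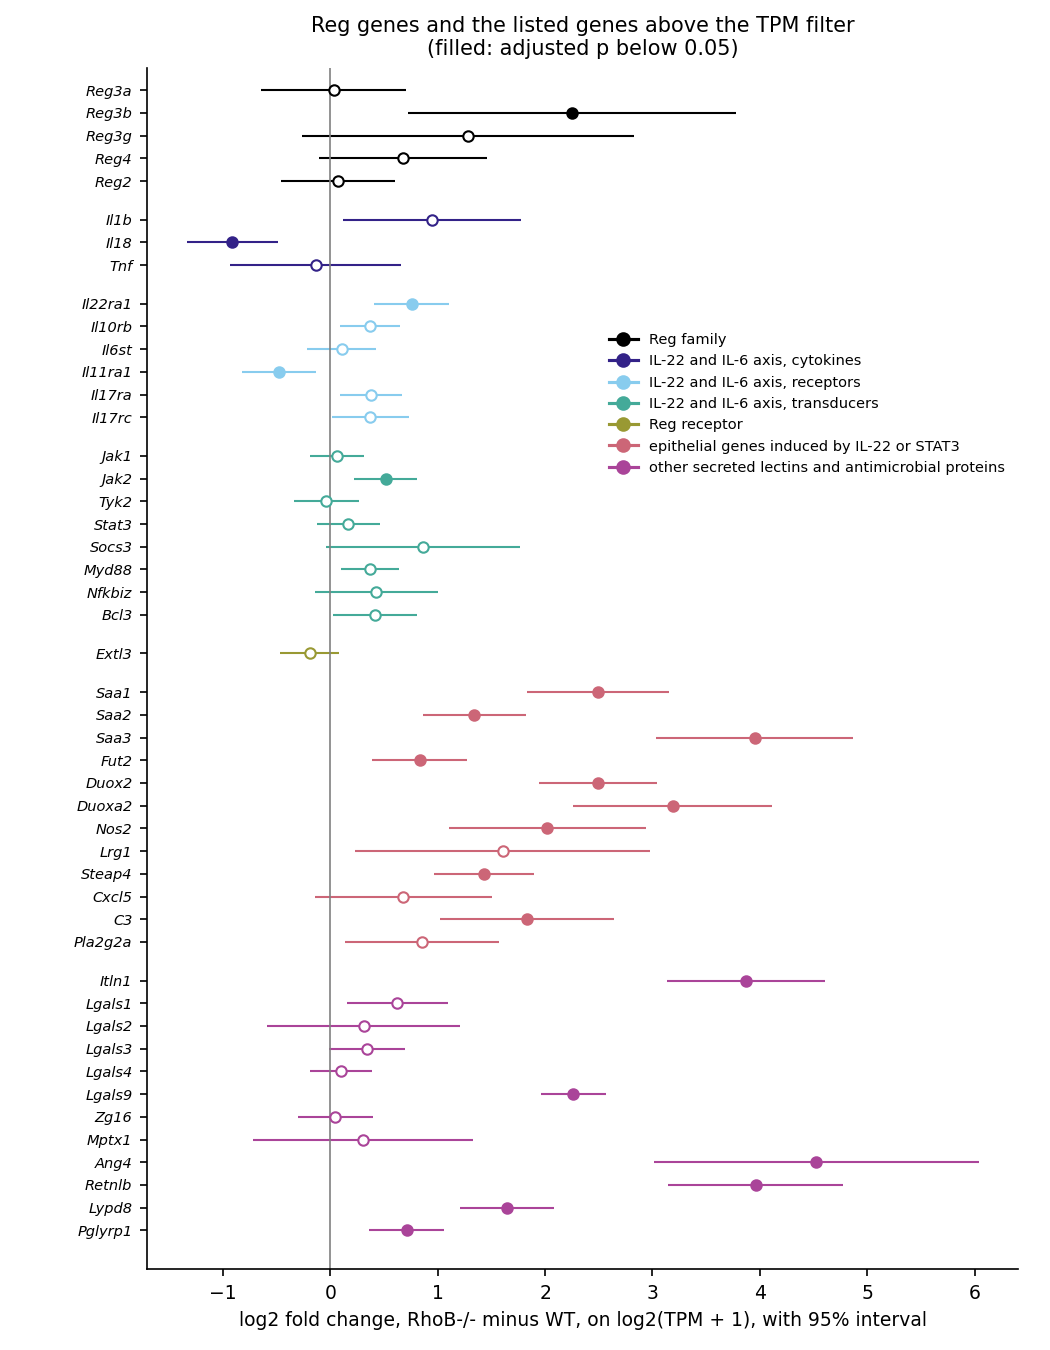
Log2 fold change (RhoB-/- minus WT, with 95% interval from limma) on log2(TPM + 1) for the tested Reg genes and the tested genes of the pathway and antimicrobial lists, coloured by list; filled points have an adjusted p below 0.05. Of the Reg genes Reg3b is filled, at 2.25, and the interval of Reg3g runs from -0.26 to 2.83.

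Markers of other cells were read beside the Reg genes. Shares called over all tested genes were 7.73% higher and 13.5% lower. The immune cell list (10 genes) summed to 5.95 to 10.1 TPM in WT and 18.9 to 35.5 TPM in RhoB-/- libraries. The 5 of its genes that were tested were all higher, and 5 were below the filter. Of those tested, Cd8a and Cd68 had WT means of 0.832 and 0.988 TPM and passed the filter through their RhoB-/- values. The count therefore leans upward. The stroma list (7 genes) summed to 4.21 to 5.30 and 6.48 to 36.5 TPM, with 1 of 2 tested genes higher. These 2 genes, Dcn and Col3a1, were both highest in RhoB-/- replicate 5, the library with Rhob transcript, at 24.5 and 8.22 TPM. The pancreatic acinar list (9 genes) summed to at most 0.43 TPM in any library, with 5 genes at 0 throughout. Of 9 Paneth cell markers 4 were at 0 in every library and Itln1 was the one called. Of 3 tested markers of small intestinal enterocytes Alpi and Rbp2 were higher, and the list summed to 44.5 to 99.1 TPM in WT and 87.1 to 155.7 TPM in RhoB-/- libraries. Their part in the Reg values was not tested.

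Epithelial markers were abundant in all libraries, and of 10 of them Krt20, Vil1 and Cdx2 were higher and 0 lower, with a median log2 fold change of 0.29. Against this and the lists below, 7.73% of all tested genes were called higher and 13.5% lower. Of 10 goblet and deep crypt secretory cell markers, the cells that also make Reg4, 3 were higher (Clca1, Fcgbp and Spink4, log2 fold changes 1.87, 0.96 and 0.68) and 0 lower, with a median of 0.05 over the list. The 7 not called ran from -0.59 for Agr2 (adjusted p = 0.0523 from limma), in which 4 of 5 RhoB-/- libraries were below all WT libraries, to 0.46 for Tff3 (adjusted p = 0.107), both named after their values were seen. Of 9 tested enteroendocrine markers 0 were higher and 5 lower (median -0.69), Insl5 falling from 41.9 ± 13.8 to 8.68 ± 4.09 TPM (log2 fold change -2.18, adjusted p = 4.84e-04 from limma). Hoxb13, a marker of the distal colon, fell from 81.3 ± 32.1 to 23.2 ± 8.19 TPM (log2 fold change -1.76, adjusted p = 0.00113), and Hoxa13 fell by 0.88 (adjusted p = 0.0171). These were the 2 called of 3 tested genes of the distal list. Within the RhoB-/- libraries Hoxb13 was at 22.4, 17.8 and 13.99 TPM in replicates 1, 3 and 5, where Reg3b was high, and at 35.1 and 26.5 TPM in replicates 2 and 4. Hoxa13 was at 11.4, 4.68 and 4.38 TPM in replicates 1, 3 and 5 and at 9.42 and 6.64 TPM in replicates 2 and 4. Hoxd13, tested and not called, was at 4.86, 7.18 and 1.58 TPM against 4.19 and 4.62 TPM. In Hoxa13 and Hoxd13 the libraries thus did not split as in Hoxb13. The part of position along the colon in the Reg values was not tested.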

How the data were processed

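IECs of 5 WT and 5 RhoB-/- mice were compared, 1 library per mouse, grouped by the genotype in the labels. The authors sequenced paired reads of 150 bp, which they trimmed with SeqPrep and Sickle. Alignment was by HISAT2, assembly by StringTie and gene quantification by RSEM. The submitters' processing notes also name edgeR and GRCm38.p6, and tool versions are not given in the sources used here. The deposited TPM values, with 2 decimals, were used as given by the authors. TPM is relative to each library and keeps no depth.

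Genotypes were compared with limma 3.58.1 in R 4.3.3 (lmFit, eBayes with trend) on log2(TPM + 1), for the 12870 genes that averaged at least 1 TPM, with Benjamini-Hochberg adjustment. This scale understates changes of low genes. Exact permutation tests (Python 3.11.15, numpy 2.4.6) were two-sided. The fit was tested on simulated data for this comparison of 12870 genes: of 100 genes changed by log2 1 it called 84, of 100 changed by log2 2 it called 94, and 8 of its 186 calls were false. Simulated noise was normal and independent between genes, with the same SD of a gene in both genotypes. These rates therefore do not cover genes of unequal spread, such as Reg3b and Reg3g. Positions and coding sequences are from GENCODE M21 on GRCm38 and promoters from RefSeq (GRCm38.p6), in which all 5 members matched. Replicate numbers are shared by the genotypes but the mice are different animals, so the fit had no block.

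The members, the gene lists and the tests were chosen with earlier results of these data known. Genes were named by rule: the members, Reg2 and Reg3d, the genes called in each list with values for at most 4, and the 3 genes most like each member. Of 133 listed genes 1, Prac1, was not found in the table. Alternatives were another pseudocount, other filters, quantile normalization, centring, TPM without mitochondrial or Reg genes, limma without the trend, the study's thresholds, a replicate block and each library left out. Spread and correlation without RhoB-/- replicate 5 were added after seeing the data.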

Additional observations from a re-analysis of the deposited data

Results flagged for a closer look

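Among 46 of the genes given with values, 91 groups of 5 libraries were examined for a highest or lowest library whose gap to its neighbour was over 0.71 of the range of the group (Dixon's 95% value). Chance flags about 1 in 20 groups, or about 5 here, and 7 were found. Rhob stood out in RhoB-/- replicate 5 at 110.87 TPM, and Socs3 in RhoB-/- replicate 1 at 56.48 TPM. Retnlb stood out in WT replicate 1 at 297.51 TPM, and Il22ra1 in WT replicate 2 at 15.20 TPM. Spink4 stood out in RhoB-/- replicate 3 at 4796.51 TPM. Itln1 stood out on the low side in RhoB-/- replicate 3 at 31.09 TPM. Reg3d was above 0 only in RhoB-/- replicate 2, at 0.10 TPM. Il22 and Col3a1 were outside the 46 genes and are not in the count of 7. They meet the same rule, Il22 in RhoB-/- replicate 1 at 0.35 TPM and Col3a1 in RhoB-/- replicate 5 at 8.22 TPM. None of the 5 Reg members had such a library, since Reg3b and Reg3g of the RhoB-/- group had 3 high and 2 low libraries.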

How the results depend on the processing

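Of the 5 members 1 was called, and 0 with no filter on low TPM, where Reg3b kept its log2 fold change of 2.25 with an adjusted p of 0.108 from limma. With each library left out 0 to 1 members were called, and the log2 fold change of Reg3b was 1.82 to 2.73, called in 3 of 10 fits. Reg3a changed sign when WT replicate 2 (-0.03), WT replicate 4 (-0.20) or RhoB-/- replicate 2 (-0.10) was left out, and ranged up to 0.24. Reg3g and Reg4 stayed above 0 and uncalled under all 20 alternatives, and the difference in log2 ratio of Reg3b to Reg3g was 0.90 to 1.05 under its 11 alternatives. Since the ratios of the groups do not overlap, its direction could not change when a library was left out. Its exact permutation p was 0.00794 in each of these 10 fits. The exact permutation p of Reg3b, 0.0556 with all libraries, was 0.0238 without RhoB-/- replicate 2 or 4, the low libraries of that group, and 0.0635 to 0.103 in the other 8 fits with a library left out.

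Same-numbered libraries did not deviate together (r = -0.09 to 0.07), and 2 of 10 libraries correlated best with their own number, so the numbers only name mice. With the replicate block the log2 fold change of Reg3b was 2.25 (adjusted p = 0.00488 from limma), and 836 genes were higher and 1059 lower, against 995 and 1734 without it. The counts were 1101 and 3729 without mitochondrial genes, 918 and 1197 with no filter, 814 and 1104 at a mean TPM of at least 5, 1587 and 1975 after quantile normalization and 2010 and 1645 after centring. By the study's thresholds they were 820 and 1072. With a library left out they were 716 to 1158 and 860 to 2929. Genes called in the lists were 31 higher and 9 lower, and 25 to 41 and 6 to 13 under the other settings. Depth is unknown, so values near 0, as for Reg3a and Reg1, carry an unknown counting error.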
